A study of Mus musculus with 6 samples.

Results

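The genes described here are 10 mouse imprinted genes that are read from the paternal allele: Peg3, Plagl1, Snrpn, Zrsr1, Impact, Nnat, Ndn, Sgce, Mest and Peg10. They were taken by name, through GENCODE M21 symbols, from a table of 53715 mouse genes, and not by any measured value. All 10 passed the filter on low counts, which 16123 of the 53715 genes passed. Cerebellar polyadenylated RNA was sequenced from 3 mice fed a low-Mn diet, nominally 0 ppm of manganese, and from 3 mice fed a normal-Mn diet with 35 ppm, each for 2 weeks. All mice were male wild-type C57BL/6, bought young and called adult in the labels, and each library came from the whole cerebellum of 1 mouse. The study's methods call the 3 libraries of a diet biological replicates, with 1 cerebellum per mouse, although a legend of the study calls them technical. By the methods, the tests measure the spread between mice of a diet. The comparison asks which transcripts of the cerebellum differ when dietary Mn is withheld.

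Genomic imprinting marks some genes in the egg or the sperm, mostly by DNA methylation at control regions, so that later only the copy from the mother or only the copy from the father is transcribed. In the brain, paternally expressed genes act in growth, neuronal survival, feeding and maternal behaviour, and loss of the paternal copies around SNRPN and NDN causes Prader-Willi syndrome in humans. The counts used here do not separate the alleles, so they measure how much RNA a gene gave and not which copy it came from.

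Stretches of promoter are shown for 4 of the 10 genes: Peg3, because it had the largest difference between the diets, and Ndn, Snrpn and Nnat, because they share an 8-base word. They run 5′ to 3′ on the gene's strand from 250 bases before to 50 bases after a RefSeq start site on GRCm38.p6. Capitals mark CGCATGCG, a palindrome that reads the same on both strands and was picked after the promoter sequences had been looked at. The Peg3 window is chr7:6730370-6730669 on the minus strand, the Ndn window chr7:62348027-62348326 on the plus strand, the Snrpn window chr7:60005150-60005449 on the minus strand and the Nnat window chr2:157559828-157560127 on the plus strand.
Peg3: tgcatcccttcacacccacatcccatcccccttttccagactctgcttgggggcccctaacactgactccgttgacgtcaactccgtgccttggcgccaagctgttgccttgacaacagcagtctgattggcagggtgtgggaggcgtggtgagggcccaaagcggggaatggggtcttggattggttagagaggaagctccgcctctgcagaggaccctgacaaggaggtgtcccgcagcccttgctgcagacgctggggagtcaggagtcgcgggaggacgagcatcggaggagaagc
Ndn: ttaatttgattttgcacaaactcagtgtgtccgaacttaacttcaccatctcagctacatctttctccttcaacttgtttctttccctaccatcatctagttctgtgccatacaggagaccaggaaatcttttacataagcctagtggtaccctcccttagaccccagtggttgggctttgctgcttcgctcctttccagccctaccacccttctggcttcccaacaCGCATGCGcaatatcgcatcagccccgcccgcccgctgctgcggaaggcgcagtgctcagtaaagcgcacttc
Snrpn: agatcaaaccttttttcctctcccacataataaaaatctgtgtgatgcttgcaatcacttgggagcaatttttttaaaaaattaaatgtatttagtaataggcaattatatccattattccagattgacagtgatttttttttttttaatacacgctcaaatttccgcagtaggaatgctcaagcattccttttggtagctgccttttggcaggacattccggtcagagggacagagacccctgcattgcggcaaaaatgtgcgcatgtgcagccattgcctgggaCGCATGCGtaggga
Nnat: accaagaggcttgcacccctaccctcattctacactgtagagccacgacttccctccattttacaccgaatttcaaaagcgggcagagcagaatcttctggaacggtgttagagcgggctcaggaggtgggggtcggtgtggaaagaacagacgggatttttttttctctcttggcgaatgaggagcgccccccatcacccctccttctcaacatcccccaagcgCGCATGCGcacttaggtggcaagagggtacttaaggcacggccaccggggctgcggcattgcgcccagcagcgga

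The word began 23 bases before the start site in Ndn (position -23) and 25 bases before it in Nnat (position -25). In Snrpn it began at position 37, counting the start site as position 1, in the window shown, whose start site lies next to Snurf, and it was also present in the windows of the other 3 Snrpn start sites, so in 4 of 4. Among the 7 genes whose windows were scanned, 3 held it, against 1.87% of the 32851 RefSeq mouse windows and 2.07% of their 27025 genes. Impact was left out of the scan, and no window was matched for Peg10 and Sgce. The word was picked from these same promoters, so these shares are a description and not a test of enrichment. Peg3, Plagl1, Zrsr1 and Mest did not have these letters in their windows. The windows also held CpG dinucleotides, the usual site of DNA methylation, in numbers from 2 in a Snrpn window to 26 in Plagl1, against a median of 7 over the RefSeq windows. The Peg3 window above has 13, the Ndn window 11, the Snrpn window 7 and the Nnat window 17. A match of letters is a description of the sequence, and no binding or methylation was measured.

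None of the 10 genes passed the test between the diets (edgeR's quasi-likelihood test, Benjamini-Hochberg adjusted p under 0.05 over all 16123 genes), where 96 of the 16123 genes tested, or 0.595%, did, while DESeq2 called 1 of the 10, Peg3, and limma-voom 0. Over all genes DESeq2 called 125 of 10232 and limma-voom 63 of 16123. Peg3 came nearest at an adjusted p of 0.0618, with an average of 479 CPM in the low-Mn libraries and 414 CPM in the normal-Mn libraries. CPM, the usual unit of normalized counts, gives a gene's count relative to the total of its library, here scaled by the TMM method. Impact was the only other gene of the 10 whose libraries did not overlap between the diets, and there the low-Mn libraries were the lower ones. The libraries did not overlap for 2 of the 10 genes, against 2759 of all 16123 genes, or 17.1%. An unadjusted p under 0.05 was reached by 2 of the 10, Peg3 and Nnat, against 1954 of all genes, or 12.1%.

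Peg3 encodes a large zinc finger protein that binds DNA, and its loss has been linked to poorer growth and maternal care in mice. The gene lies at chr7:6703892-6730431 on the minus strand. Its level was 482, 470 and 486 CPM in the low-Mn libraries, against 414, 380.1 and 448 CPM in the normal-Mn libraries. Every low-Mn library was thus above every normal-Mn library, and the low-Mn libraries lay close together while the normal-Mn ones were spread, at 479 ± 8.14 CPM in low-Mn libraries and 414 ± 34.2 CPM in normal-Mn libraries (SD, n = 3 each). Its fold change of low-Mn over normal-Mn was 0.21 on the log2 scale, which is used throughout (SE 0.0507, 95% interval 0.11 to 0.32, adjusted p = 0.0618 in edgeR). Its p-value was the 125th smallest of all genes tested. Other processing moved it across the threshold: the adjusted p was 0.00563 in DESeq2 and 9.30e-04 with no filter on low counts. Without normal-Mn replicate 3 it was 0.0216 at a log2 fold change of 0.27, and without normal-Mn replicate 2 it was 0.246 at 0.15. Apart from a fit with the replicate number as a block, Peg3 was called in 3 of 13 alternatives, and the log2 fold change stayed between 0.15 and 0.27 in all 13. No 50-base stretch of its transcripts was found in another annotated gene.

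**Figure D1:**
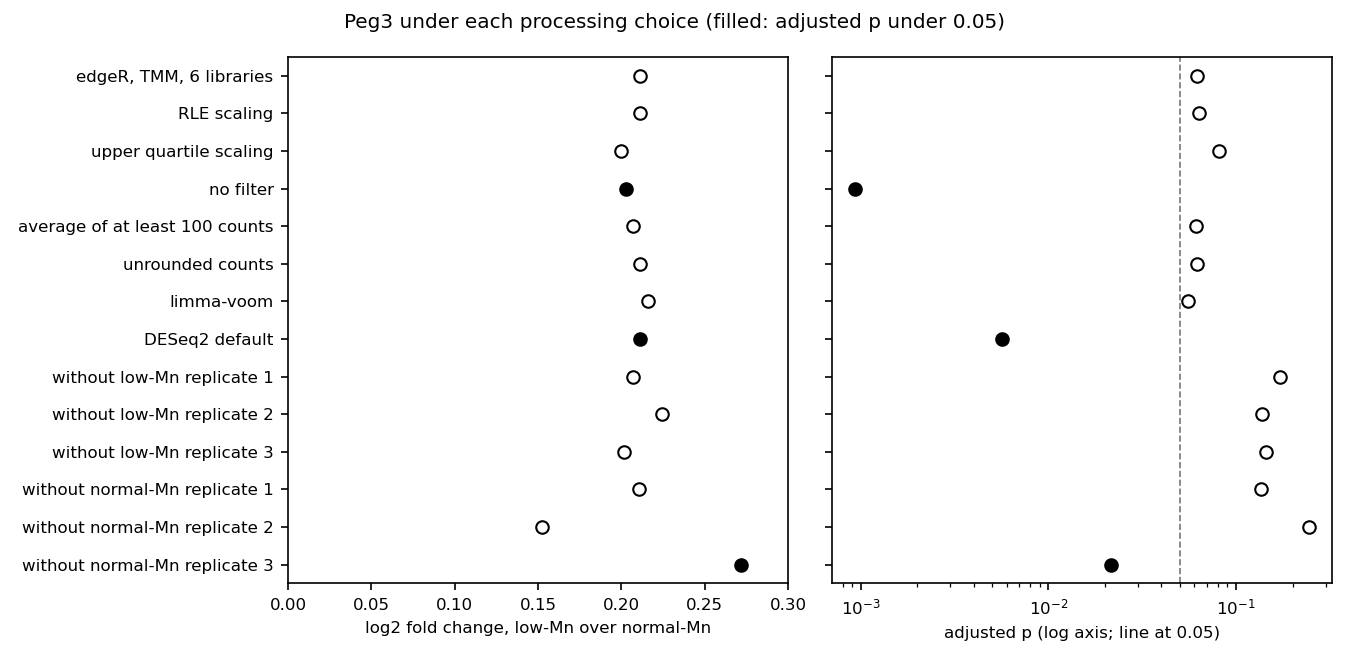
Peg3 under the main test and 13 processing alternatives, with the log2 fold change of low-Mn over normal-Mn on the left and the adjusted p on a log axis on the right. The fold change keeps its sign throughout, between 0.15 and 0.27, while the adjusted p crosses the line at 0.05, with filled points for the 3 alternatives that passed.

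Plagl1, also called Zac1, is the other zinc finger factor among the 10 genes and is known for slowing cell growth. It lies at chr10:13060504-13131694 on the plus strand. It had 21.04, 18.97 and 19.3 CPM in the low-Mn libraries, against 22.5, 20.7 and 19.2 CPM in the normal-Mn libraries. The groups overlapped, since the lowest normal-Mn library sat among the low-Mn ones. The log2 fold change was -0.07 with an SE of 0.0943 (95% interval -0.27 to 0.12, adjusted p = 0.820 in edgeR).

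Snrpn and Zrsr1 encode proteins of RNA splicing. Snrpn makes SmN, a core protein of the small nuclear ribonucleoproteins that takes the place of SmB in neurons, and its gene lies at chr7:59982495-60140219 on the minus strand. It had 605, 586 and 591 CPM in the low-Mn libraries, against 598, 613 and 591 CPM in the normal-Mn libraries. The 6 libraries differed so little that the interval of the log2 fold change, -0.10 to 0.07 around -0.02, was the narrowest of the 10 genes (SE 0.0405, adjusted p = 0.922 in edgeR). Of the 50-base stretches in its transcripts, 26.5% also occur in another annotated gene, most of them in Gm38393, whose transcripts overlap the locus.

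Zrsr1 is an intronless relative of a splicing factor that recognises the end of introns, and lies at chr11:22972005-22976496 on the plus strand, inside Commd1. It had 87.9, 97.5 and 86.3 CPM in the low-Mn libraries, against 81.95, 93.6 and 79.9 CPM in the normal-Mn libraries. Replicate 2 was the highest library of either diet, and the groups overlapped. The log2 fold change was 0.09 (SE 0.0634, 95% interval -0.05 to 0.22, adjusted p = 0.640 in edgeR). Commd1 holds 7.13% of its 50-base stretches.

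Impact encodes a protein that holds back the kinase GCN2 by binding GCN1, and so favours translation. It lies at chr18:12955852-12992950 on the plus strand. Its levels were 151, 152 and 156 CPM in the low-Mn libraries, against 162, 158 and 166 CPM in the normal-Mn libraries. The highest low-Mn library was thus just under the lowest normal-Mn one. The log2 fold change was -0.08, with an SE of 0.0451, a 95% interval of -0.18 to 0.01 and an adjusted p of 0.481 in edgeR, and it ranged from -0.10 to -0.06 over the 14 alternatives.

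Nnat encodes neuronatin, a small protein of the endoplasmic reticulum membrane in neurons that is known to act on calcium stores. It lies at chr2:157560078-157562522 on the plus strand, within the span of Blcap. Low-Mn libraries had 70.3, 81.85 and 80.85 CPM, against 81.4, 90.2 and 83.0 CPM in normal-Mn libraries. Low-Mn replicate 1 stood below the other 5 libraries and normal-Mn replicate 2 above them, with the remaining 4 close together. The log2 fold change was -0.13 (SE 0.0622, 95% interval -0.26 to -2e-04, adjusted p = 0.412 in edgeR). Leaving out 1 library at a time moved it between -0.17 and -0.06.

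Ndn encodes necdin, a protein of the MAGE family that restrains cell division and supports the survival of neurons. It lies at chr7:62346569-62350262 on the plus strand. The low-Mn libraries had 164, 174 and 169 CPM, against 174, 188.5 and 162 CPM in the normal-Mn libraries. All 3 low-Mn values lay inside the range of the normal-Mn values. The log2 fold change was -0.05 (SE 0.0527, 95% interval -0.16 to 0.06, adjusted p = 0.762 in edgeR).

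Sgce, Peg10 and Mest were among the 4 least abundant of the 10 genes in CPM, together with Plagl1. Sgce encodes epsilon-sarcoglycan, a membrane protein of the dystrophin complex whose mutation causes myoclonus-dystonia in humans, and lies at chr6:4674350-4747207 on the minus strand. It had 30.4, 24.7 and 27.9 CPM in the low-Mn libraries, against 29.2, 27.3 and 26.1 CPM in the normal-Mn libraries. The low-Mn libraries held both the highest and the lowest value, and the log2 fold change of 0.01 (SE 0.0865, 95% interval -0.17 to 0.19, adjusted p = 0.982 in edgeR) turned to -0.0029 with upper quartile scaling. Peg10, a gene derived from a retrotransposon that mice need in the placenta, lies next to it at chr6:4747306-4760517 on the plus strand. Its values were 24.3, 20.0 and 24.9 CPM in the low-Mn libraries, against 27.2, 24.0 and 21.2 CPM in the normal-Mn libraries. The groups overlapped almost fully, with a log2 fold change of -0.07 (SE 0.103, 95% interval -0.28 to 0.15, adjusted p = 0.861 in edgeR).

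Mest encodes a protein with the fold of a hydrolase that has been tied to fat cell and body growth in mice, and lies at chr6:30723547-30748465 on the plus strand. It had 13.95, 11.7 and 13.4 CPM in the low-Mn libraries, against 14.4, 14.52 and 12.5 CPM in the normal-Mn libraries. The groups overlapped, and the log2 fold change was -0.08 (SE 0.116, 95% interval -0.32 to 0.16, adjusted p = 0.848 in edgeR). This interval was the widest of the 10 genes. Copg2, which overlaps its end on the opposite strand, holds 21.2% of its 50-base stretches.

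**Figure D2:**
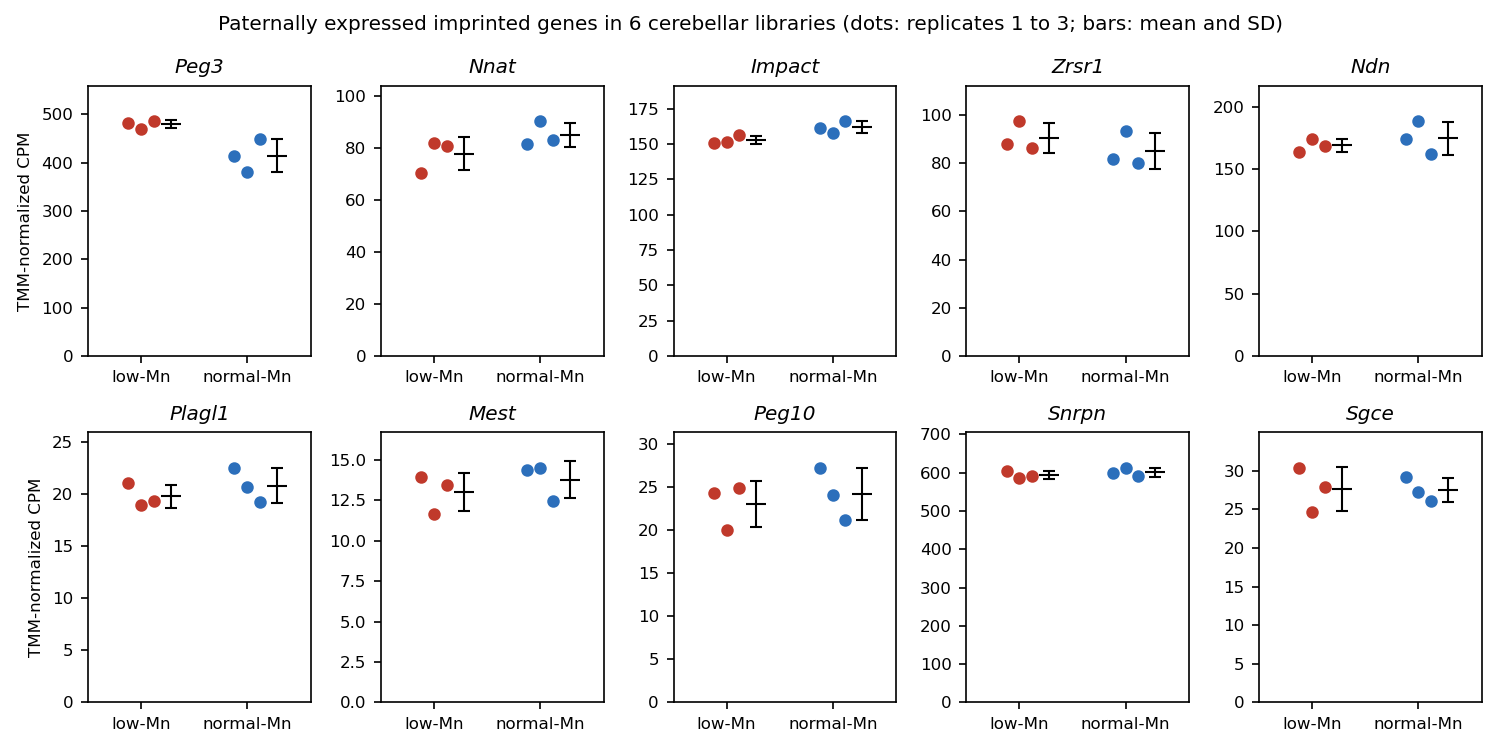
Level of the 10 genes in each library, in TMM-normalized CPM on an axis from 0, with low-Mn libraries on the left and normal-Mn libraries on the right of each panel, and the mean and SD beside the points. Peg3 lies at 470 to 486 CPM in low-Mn libraries and at 380.1 to 448 CPM in normal-Mn libraries, and Peg3 and Impact are the panels where the groups do not overlap.

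Taken as a group, 3 of the 10 genes had a positive log2 fold change (Peg3, Zrsr1 and Sgce, the last of which was negative with upper quartile scaling) and 7 a negative one. Their median was -0.06, against -0.0025 over all 16123 genes. The median size without regard to sign was 0.0772, against 0.0918 over all genes. This and the next 2 comparisons were not matched for count level. All 10 genes averaged at least 100 counts, as did 11685 of the 16123 genes. The libraries of a diet spread by a median of 0.0999 on the log2 scale for the 10 genes, against 0.113 for all genes. The half-width of the 95% interval had a median of 0.131, against 0.201 over all genes, so the interval of a typical one of the 10 genes reached that far to either side of its fold change.

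**Figure D3:**
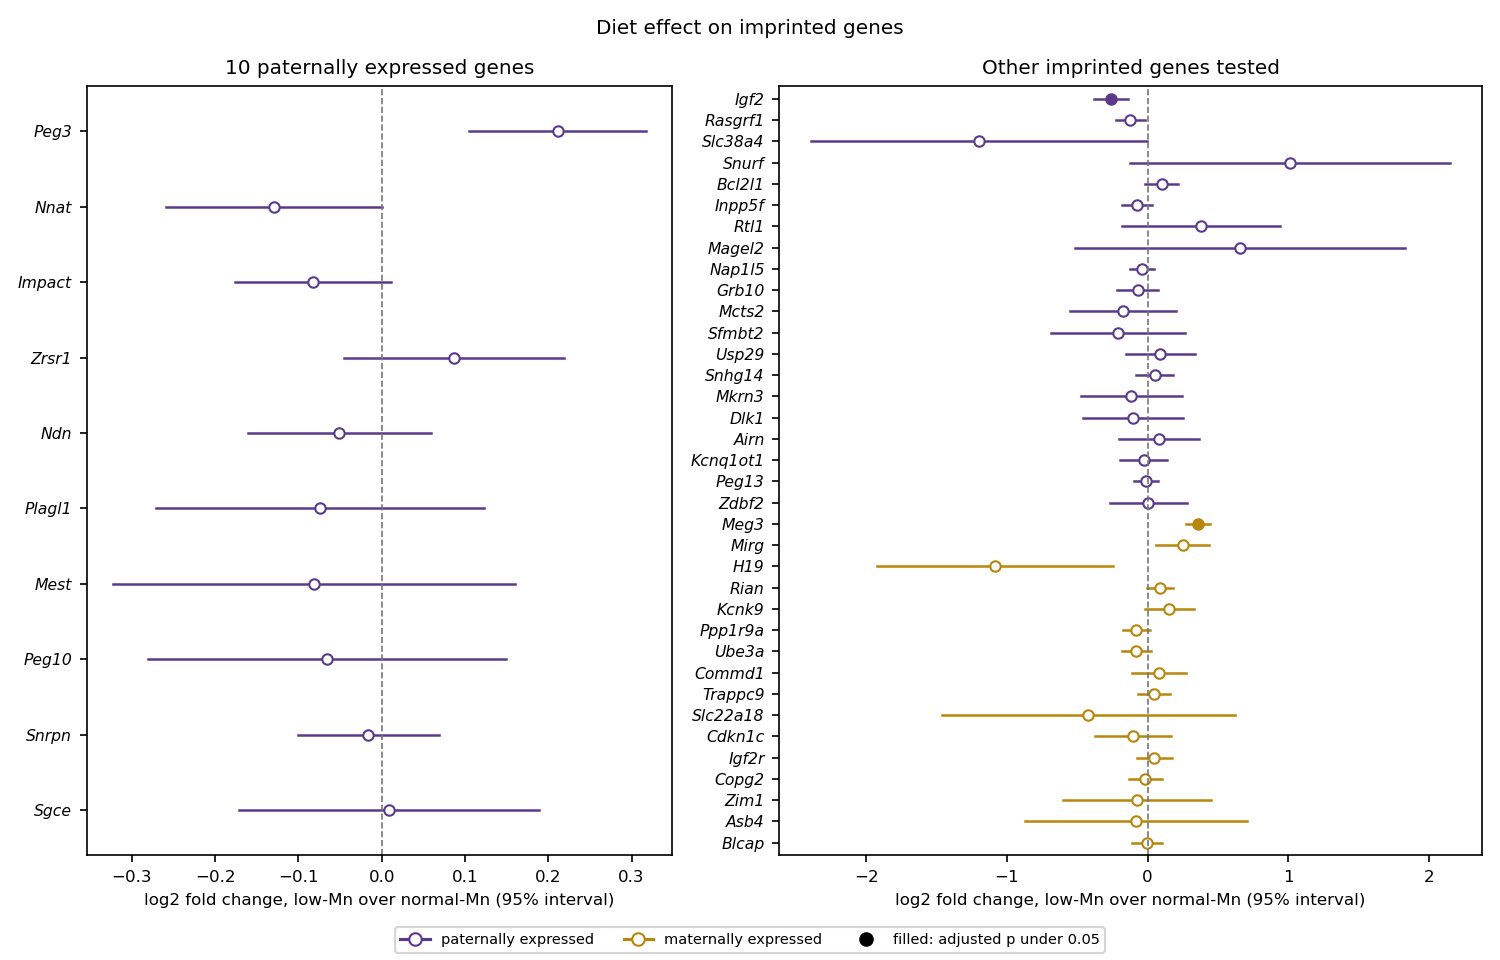
Log2 fold change of low-Mn over normal-Mn with its 95% interval for the 10 genes (left) and for the other imprinted genes that were tested (right, on a wider axis), with filled points for an adjusted p under 0.05. The interval of Peg3, 0.11 to 0.32, lies above 0 at an adjusted p of 0.0618, and among the other genes Igf2 at -0.26 and Meg3 at 0.36 are filled.

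Levels were compared between genes per kilobase of annotated exons. Snrpn was by far the most abundant per length, at 275 ± 4.50 CPM per kb in the low-Mn libraries and 278 ± 5.23 CPM per kb in the normal-Mn libraries (SD, n = 3 each). Its mean over the 6 libraries was 5.945 times that of Ndn, the next gene. The annotated Ndn gene, 3694 bases under either length used here, starts at 62346569. That is upstream of the whole RefSeq window shown above, which begins at 62348027. With a later start Ndn would be higher per kb and this ratio smaller, which was not calculated, so the place of Ndn in the order is uncertain. Ndn at 46.55 and Nnat at 44.4 CPM per kb overlapped in their libraries, and so did Peg3 at 33.5 and Impact at 30.7 CPM per kb, while Nnat and Peg3 did not overlap. Zrsr1 stood alone at 19.6 CPM per kb. The remaining genes lay far lower, with Peg10 at 3.54 and Mest at 3.40 CPM per kb overlapping, and Sgce at 2.60 and Plagl1 at 2.595 CPM per kb overlapping below them. Per kb of all annotated exons, Snrpn was thus 106.7 times as abundant as Plagl1, a ratio that also depends on the length used. The order depends on the length used: per kb of the longest transcript, 4 of the 10 genes kept their place, Nnat at 56.1 and Peg3 at 51.4 CPM per kb came before Ndn at 46.55, and Sgce at 6.25 CPM per kb came before Mest and Peg10.

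**Figure D4:**
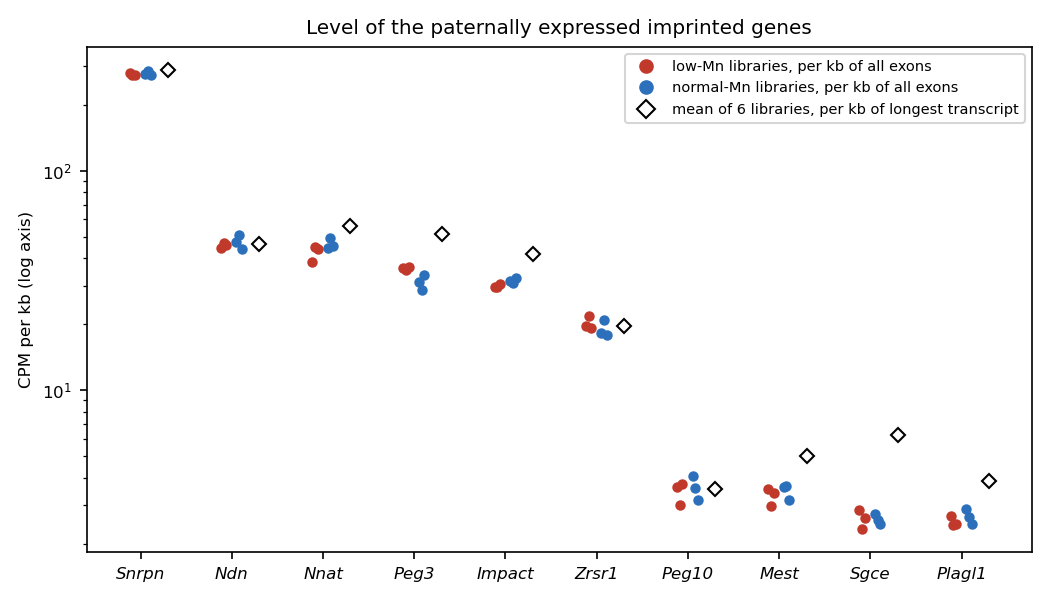
Level of the 10 genes per kb of all annotated exons in each library, on a log axis, with low-Mn libraries left of normal-Mn libraries and open diamonds for the mean of 6 libraries per kb of the longest transcript. Snrpn stands above all others near 277 CPM per kb, 5 genes lie between 19.6 and 46.55 CPM per kb, and 4 lie between 2.595 and 3.54 CPM per kb.

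Several of the 10 genes sit beside a gene with which they share a promoter region, an imprinted domain or a host intron, and 6 such pairs were compared as the log2 ratio of the 2 genes within a library. None of the ratios passed an exact two-sided permutation test between the diets, which cannot go below p = 0.1 here, with adjusted p from 0.75 to 0.9 over the 6 pairs. Sgce and Peg10 start 99 bases apart on opposite strands, and their ratio was 0.26 ± 0.0879 in low-Mn libraries and 0.19 ± 0.102 in normal-Mn libraries (SD, n = 3 each). Ndn and Snrpn, 2206350 bases apart in the Prader-Willi domain, had a ratio of -1.81 ± 0.0661 in low-Mn libraries and -1.78 ± 0.0827 in normal-Mn libraries. In both pairs the difference, 0.07 and -0.03, was smaller than the SD between libraries of either diet.

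The pair of Peg3 and Usp29, a ubiquitin protease gene that starts 147 bases away on the opposite strand and is also paternally expressed, was the least even. Its log2 ratio was 4.45, 4.26 and 3.88 in the low-Mn libraries, against 4.10, 4.05 and 4.01 in the normal-Mn libraries. The low-Mn libraries thus lay on both sides of the normal-Mn ones (difference 0.14, exact permutation p = 0.5). Usp29 itself had 22.0, 24.5 and 33.1 CPM in low-Mn libraries, against 24.15, 22.95 and 27.75 CPM in normal-Mn libraries, with a log2 fold change of 0.09 (adjusted p = 0.824 in edgeR), and it shares 14.9% of its 50-base stretches with other genes, most of them with Zim3. Low-Mn replicate 3 was the highest library for Usp29.

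Of the host or overlapping genes, Blcap, which spans Nnat, had a log2 fold change of -0.0045 (adjusted p = 0.983 in edgeR), and the ratio of Nnat to Blcap differed by -0.13 between low-Mn and normal-Mn libraries. Low-Mn replicate 1, at a ratio of -0.37, was the library that stood lowest there, and without it the difference was -0.04. Commd1, the copper-related gene around Zrsr1, had a log2 fold change of 0.08 (adjusted p = 0.790), and Copg2, a coatomer subunit gene, one of -0.02 (adjusted p = 0.940). The ratio of Zrsr1 to Commd1 differed by 0.01 and that of Mest to Copg2 by -0.06. Exons of Zrsr1 and Commd1 overlap over 412 bases and those of Mest and Copg2 over 912 bases, on opposite strands. The sources used here do not say how strand entered the counting. These 2 ratios are therefore uncertain, and so are the levels and fold changes of Zrsr1, Commd1, Mest and Copg2.

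**Figure D5:**
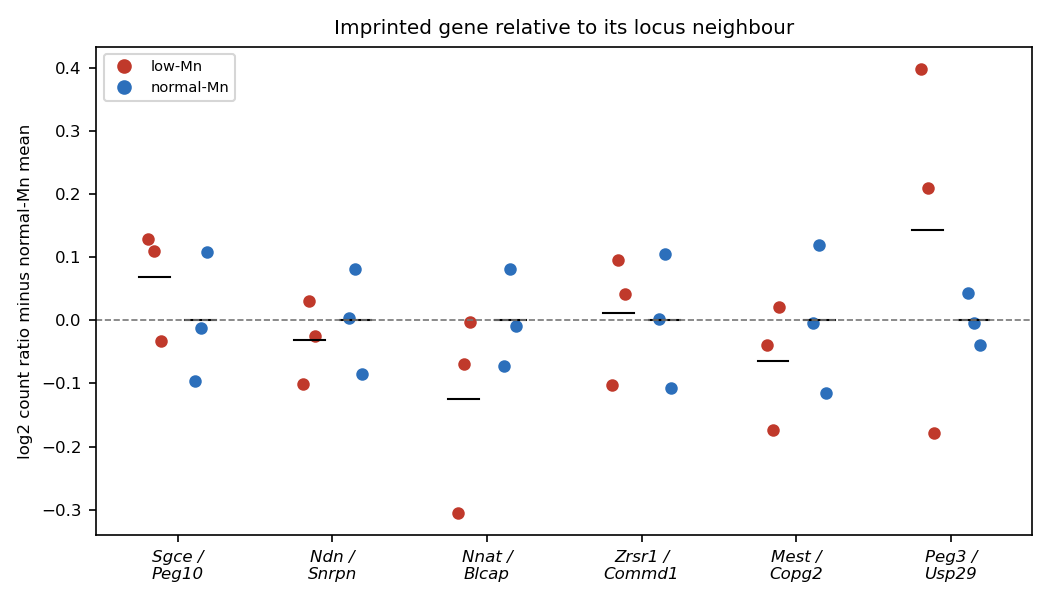
Log2 ratio of an imprinted gene to its locus neighbour in each library, less the mean of the normal-Mn libraries, with low-Mn points left of normal-Mn points and a line at each mean. The points of the diets overlap in all 6 pairs, and the widest spread is that of the low-Mn libraries for Peg3 to Usp29.

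Among 23 other paternally expressed genes of the table, 20 passed the filter and 1 of these, Igf2, fell in the low-Mn libraries, with 0 higher. For all genes the shares were 0.18% lower and 0.416% higher. Their median log2 fold change was -0.04, with values from -1.20 to 1.01. Igf2, the insulin-like growth factor that imprinting is best known for, had 159, 156 and 165 CPM in the low-Mn libraries, against 191, 212 and 173 CPM in the normal-Mn libraries. The highest low-Mn value was under the lowest normal-Mn value (log2 fold change -0.26, SE 0.0585, adjusted p = 0.0432 in edgeR). The call was lost when any library but normal-Mn replicate 3 was left out, with adjusted p of up to 0.200, and it was 0.0590 in limma-voom. Of the 50-base stretches of Igf2, 62.1% are shared, mostly with the annotated gene Gm49394. In adult brain Igf2 RNA comes largely from meninges and choroid plexus, and the summed markers of meninges and fibroblasts were 187 to 247.1 CPM in low-Mn libraries and 246.9 to 264 CPM in normal-Mn libraries, with 9 of 10 markers at a negative log2 fold change (median -0.20), 4 of them without overlap and 1 past the test, Fn1. Those of choroid plexus were 3495 to 4330 CPM in low-Mn libraries and 4129 to 4989 CPM in normal-Mn libraries, with 9 of 10 markers at a negative log2 fold change (median -0.26), 4 of them without overlap, 8 of 10 at an unadjusted p under 0.05 and 1 past the test, Kl. Their part in the Igf2 result was not tested, and in whole tissue fewer cells of a type and less RNA per cell cannot be told apart.

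Rasgrf1, an activator of Ras in neurons, had 192.5, 189 and 194 CPM in low-Mn libraries, against 214, 194.4 and 219 CPM in normal-Mn libraries. Its libraries did not overlap, but it did not pass (log2 fold change -0.12, adjusted p = 0.302 in edgeR). Nap1l5 was the remaining one of 3 genes in this list whose libraries did not overlap, all with low-Mn below normal-Mn, where 8.32% of all genes did the same. Slc38a4, an amino acid transporter gene, was below 1.3 CPM in every library and had the lowest log2 fold change of the list, -1.20, at an adjusted p of 0.412. Snurf, which lies upstream of Snrpn on a shared transcript, had the highest, 1.01, at an adjusted p of 0.473. Its levels were 2.21, 2.82 and 1.05 CPM in low-Mn libraries, against 2.06, 0.762 and 0.108 CPM in normal-Mn libraries, and 100% of its 50-base stretches occur in another gene, so its counts cannot be separated from those of the Snrpn locus.

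For maternally expressed genes, 16 of 22 passed the filter, 1 rose (Meg3) and 0 fell, with a median log2 fold change of -0.01. Over all genes 0.416% rose and 0.18% fell, and the median was -0.0025. The libraries of 2 of the 16 did not overlap, 1 in each direction, against 17.1% of all genes. Meg3, a long noncoding RNA, had 2267, 2295 and 2324 CPM in low-Mn libraries, against 1740, 1785 and 1846 CPM in normal-Mn libraries. The groups were far apart beside their spread, and it had the smallest p-value of all genes (log2 fold change 0.36, SE 0.0405, adjusted p = 2.99e-04 in edgeR), with a call in 14 of 14 alternatives. Rian and Mirg, further noncoding RNAs of the same strand of that cluster, had log2 fold changes of 0.09 (adjusted p = 0.457) and 0.25 (adjusted p = 0.259). The paternally expressed genes of that cluster, Dlk1 and Rtl1, had log2 fold changes of -0.10 (adjusted p = 0.868) and 0.38 (adjusted p = 0.625). H19, the maternal partner of Igf2, had 2.615, 1.72 and 2.22 CPM in low-Mn libraries, against 9.13, 2.14 and 2.655 CPM in normal-Mn libraries. Normal-Mn replicate 1 stood far above the rest, and the log2 fold change of -1.09 (adjusted p = 0.262 in edgeR) was -0.12 without it.

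Genes that set or keep imprints were represented by 21 genes, of which 19 passed the filter and 0 passed the test (edgeR), with 5 at an unadjusted p under 0.05, where 12.1% of all genes were, and 2 called by DESeq2, which called 125 of 10232 genes in all. Of the 19, 16 had a positive log2 fold change, against 7931 of all 16123 genes, and the median was 0.08, against -0.0025 over all genes. The libraries of 6 did not overlap, all with low-Mn above normal-Mn, where 8.79% of all genes did the same: Tet3, Dnmt3a, Zfp445, Setdb1, Eed and Trim28. Tet3, which oxidises methylated cytosine, had 98.05, 99.0 and 112 CPM in low-Mn libraries, against 91.9, 88.0 and 80.5 CPM in normal-Mn libraries (log2 fold change 0.25, adjusted p = 0.0717). The DNA methyltransferase Dnmt3a had 142, 148 and 148 CPM in low-Mn libraries, against 133, 120 and 129 CPM in normal-Mn libraries (log2 fold change 0.20, adjusted p = 0.0730). Both lay just short of the threshold in edgeR and passed it in DESeq2, at adjusted p of 0.0423 for Tet3 and 0.0312 for Dnmt3a. Zfp445, a zinc finger protein that protects imprints in the mouse embryo, and Arid4b, a chromatin protein that acts on the Prader-Willi control region in mice, had log2 fold changes of 0.13 (adjusted p = 0.311) and 0.15 (adjusted p = 0.325).

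Known binding partners and targets of the 10 proteins made up the last list, in which 30 of 31 genes passed the filter and 0 passed the test (edgeR), with 4 of the 30 at an unadjusted p under 0.05, near the 12.1% of all genes, and 0 called by DESeq2. The median log2 fold change was 0.04. The libraries of 7 of the 30 did not overlap, 4 with low-Mn above normal-Mn and 3 below. Over all genes the shares were 8.79% above and 8.32% below. Cdkn1a, the cell cycle inhibitor p21 that Plagl1 is known to induce, had 23.3, 24.7 and 23.1 CPM in low-Mn libraries, against 17.9, 20.0 and 19.2 CPM in normal-Mn libraries. Those libraries did not overlap, and the log2 fold change was 0.32 (adjusted p = 0.117 in edgeR). On the side of Sgce, the dystrophin complex genes Sspn and Dtna had log2 fold changes of -0.27 (adjusted p = 0.249) and -0.11 (adjusted p = 0.309), both without overlap and with low-Mn below normal-Mn, and so did Dmd, the dystrophin gene, at -0.12 (adjusted p = 0.434). Other genes of that complex did not share this: Sgcb, at 0.08 (adjusted p = 0.586), had low-Mn above normal-Mn without overlap, and Dag1 at 0.0063 (adjusted p = 0.975) and Sgcd at -0.46 (adjusted p = 0.699) overlapped. E2f1, a cell cycle factor that necdin binds, had a log2 fold change of -0.68 at under 3.9 CPM in every library (adjusted p = 0.340). Eif2ak4, the gene of the kinase GCN2 that Impact restrains, had one of 0.16 (adjusted p = 0.545), and its target Atf4 one of -0.002 (adjusted p = 0.991).

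The libraries held 14548336 to 21277469 expected counts, with fewer in the low-Mn libraries (at most 17124327) than in the normal-Mn libraries (at least 18446701), and TMM factors of 0.9885 to 1.008. Depth and diet cannot be told apart across them. Cerebellar identity was clear from the markers: granule neuron markers summed to 5667 CPM in low-Mn libraries and 5564 CPM in normal-Mn libraries on average, Purkinje neuron markers to 10690 CPM in low-Mn libraries and 10420 CPM in normal-Mn libraries, and 1 of 12 brain stem markers passed the filter. Astrocyte, microglia and interneuron markers had none that passed the test, with low-Mn over normal-Mn ratios of their sums of 0.945, 0.9165 and 0.964. Each of these sums was lower in every low-Mn library than in every normal-Mn library. The ranges were 4200 to 4309 against 4420 to 4600 CPM for astrocytes and 163 to 171 against 181 to 186 CPM for microglia. For interneurons they were 2042 to 2053 against 2058 to 2200 CPM. Of 10 markers each, 8, 9 and 7 had a negative log2 fold change. Endothelial markers had a ratio of 1.03. The part of these cell types in the values of the 10 genes was not tested.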

How the data were processed

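Polyadenylated RNA of 6 cerebella was sequenced, 3 per diet. The authors aligned reads to mm10 with STAR and deposited RSEM's expected counts. The study's methods name a NEBNext Ultra II RNA kit for the libraries. The sources used here do not state the tools' versions or the use of strand. Between 7.13% and 7.75% of a library's values, with zeros counted in, were not whole, and they were rounded. The low-Mn columns carry only a replicate number and were assigned because the normal-Mn columns are named. The 92 spike-in rows were left out. GENCODE M21 gave symbols to 53620 of 53715 genes.

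Genes were filtered with filterByExpr (minimum count 10, minimum total 15), scaled by TMM and tested with edgeR 4.0.16 (quasi-likelihood, R 4.3.3), low-Mn over normal-Mn, at a Benjamini-Hochberg adjusted p under 0.05 across 16123 genes. The procedure was tested on simulated data whose changes were larger than those of the 10 genes, so that test does not cover changes of their size. DESeq2 1.42.0, limma-voom (limma 3.58.1), other scalings and filters, unrounded counts, a replicate block and leaving out each library were alternatives. Ratios used an exact permutation test. Sequence sharing counts a gene's 50-base transcript stretches found in another annotated gene. Named are all 10 genes, their locus neighbours and the 4 smallest p of each further list that passed the filter; Nap1l5, Dlk1, Rtl1, Setdb1, Eed, Trim28, Eif2ak4, Atf4, Dmd, Sgcb, Dag1 and Sgcd were named after their values were seen. One marker list is not reported here. The genes and lists were chosen with earlier results of these data known.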

Additional observations from a re-analysis of the deposited data

How the results depend on the processing

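Over the 14 alternatives the count of all genes called, 96 in the main test, was 424 with no filter, 63 with limma-voom and 37 to 93 when 1 library was left out, fewest without low-Mn replicate 2 (37), normal-Mn replicate 2 (45) and low-Mn replicate 1 (47). Upper quartile scaling gave 53 higher and 37 lower, against 67 and 29 in the main test, and no filter 218 and 206. Of the 10 genes, 1 (Peg3) was called with no filter, 1 with DESeq2 and 1 with the replicate block (log2 fold change 0.21, adjusted p = 0.0212), and 0 to 1 when 1 library was left out. Among the other imprinted genes, the imprint control genes and the partners, 2 in the main test became 5 with no filter, 4 with DESeq2, 1 with limma-voom and 1 to 2 without 1 library. The causes were not tested. By the longest transcript, 4 of 10 genes kept their place in the order of levels. Sgce turned to -0.0029 with upper quartile scaling. When 1 library was left out, log2 fold changes crossed 0 for Ndn (-0.10 to 0.0050), Peg10 (-0.15 to 0.0298), Sgce (-0.0661 to 0.0815), Blcap (-0.0249 to 0.0259), Copg2 (-0.0587 to 0.0171) and Usp29 (-0.10 to 0.21), none of which had passed the test, and so did the differences in ratio of Ndn to Snrpn (-0.0739 to 0.0088) and of Zrsr1 to Commd1 (-0.0418 to 0.0689). Same-numbered libraries of the diets did not deviate together (r = 0.0297, -0.0238 and 0.0361), so the numbers were not taken to pair the samples; the replicate block gave 128 calls, and 2 of 3 low-Mn libraries correlated best with their own number. Mest, Peg10, Plagl1 and Sgce, the 4 of lowest CPM, had the widest intervals of the 10, and Peg10, Mest and Sgce also had the largest spread between libraries of a diet (SD of 0.1765, 0.128 and 0.1205 on the log2 scale); the part of depth in this was not tested.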
